A study of Homo sapiens with 3 samples.

Results

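The capture design used to enrich K562 RNA for intron ends was examined here at 6 gene-rich chromosome ends. They hold 5386 of the 377858 intervals of the deposited list (1.43%). Members were chosen by position from 6 windows in hg19 coordinates, with an interval counted only if it lay fully inside. The windows are 144.5 to 146.3 Mb of chromosome 8 (729 intervals), 139 to 141.2 Mb of chromosome 9 (1027), 0.25 to 2.5 Mb (1354) and 88 to 90.3 Mb (744) of chromosome 16, 79.5 to 81.2 Mb of chromosome 17 (652) and 0 to 2 Mb of chromosome 19 (880). In the plots they are named by chromosome arm as 8q, 9q, 16p, 16q, 17q and 19p, where p is the short and q the long arm. Each was compared with the rest of its own chromosome, and for both ends of chromosome 16 that rest leaves out the pair of them.

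The study captured and sequenced RNA of K562, a human leukaemia cell line of erythroid and myeloid character, in order to locate splicing branchpoints. Its 3 libraries are biological replicates of 1 group, each from 5 µg of total RNA freed of ribosomal RNA, with ERCC spike-in RNA at 1% in replicates 1 and 2 and 1.08% in replicate 3. The probes were aimed at the outer 100 nt of both ends of each intron in GENCODE release 12, apart from exon parts, repeats and highly transcribed parts. The interval list is shared by the 3 libraries and holds no value per library, and the libraries' reads and depths were not analysed here. With no expression value in the list, the cell line label could not be checked against marker genes.

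A branchpoint is the intron base, usually an adenosine close to the 3′ splice site, to which the 5′ end of the intron is joined when the intron is cut out as a lariat. Gene-rich regions near telomeres are known for high GC content, closely packed genes that are active in most cell types, and short introns. The long-arm end of chromosome 8 is known to hold PLEC, which encodes the cytoskeletal linker plectin, and HSF1, the regulator of the heat shock response. The long-arm end of chromosome 9 holds the receptor gene NOTCH1 and GRIN1, a subunit of the NMDA receptor. On chromosome 16, TSC2, an inhibitor of mTOR signalling, and PKD1, the polycystin gene of polycystic kidney disease, lie at the short-arm end, and the DNA repair gene FANCA and the ion channel gene PIEZO1 at the other. The long-arm end of chromosome 17 holds FASN, the fatty acid synthase gene, and the short-arm end of chromosome 19 holds the kinase gene STK11 and GPX4, which protects membranes from lipid peroxidation. These names are background: no gene was attached to an interval, because the annotation used here lies on another build.

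All 6 ends had a higher mean score and a smaller share of score 0 than the rest of their chromosomes. The score is a whole number deposited with each interval (its meaning: not given in the sources used here). On chromosome 8 the mean score was 24.1 at the end and 4.91 in the rest, a ratio of 4.91, the largest of the 6. The mean was 24.7 against 9.52 at the end of chromosome 17 (ratio 2.59) and 21.4 against 12.4 on chromosome 19 (ratio 1.73). The ends of chromosomes 8 and 17 were thus nearly level, although the rests of these chromosomes differed. On chromosome 16 the long-arm end had a mean of 18.8 and the short-arm end 13.5, against 8.89 in the rest. For chromosome 9 the mean was 14.7 at the end and 6.62 in the rest. The windows were proposed with scores of these data known, and a fixed list has no replicate error, so the comparisons of ends with rests are a description with no test.

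The whole distribution of scores differed, not the top alone. Score 0 was carried by 10.2% of intervals at the end of chromosome 8 (74 of 729) and 56.3% in its rest. On chromosome 17 the shares were 9.05% and 38.1%, and on chromosome 19 they were 13.1% and 32.9%. The end with the largest share of score 0 was that of chromosome 9, with 27.6% (46.8% in the rest), followed by the short-arm end of chromosome 16, where it was carried by 342 of 1354 (40.2% in the rest). Median scores ran from 5 at both of these ends to 14 on chromosome 8, and from 0 to 3 in the rests. Scores of 19 or more were carried by 43.1% of intervals at the end of chromosome 8 against 7.48% in its rest, and by 23.6% against 14.3% at the short-arm end of chromosome 16, the least different. Within an end, scores still varied widely: the standard deviation between intervals was 20.4 to 28.8, larger than the mean in every end.

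**Figure D1:**
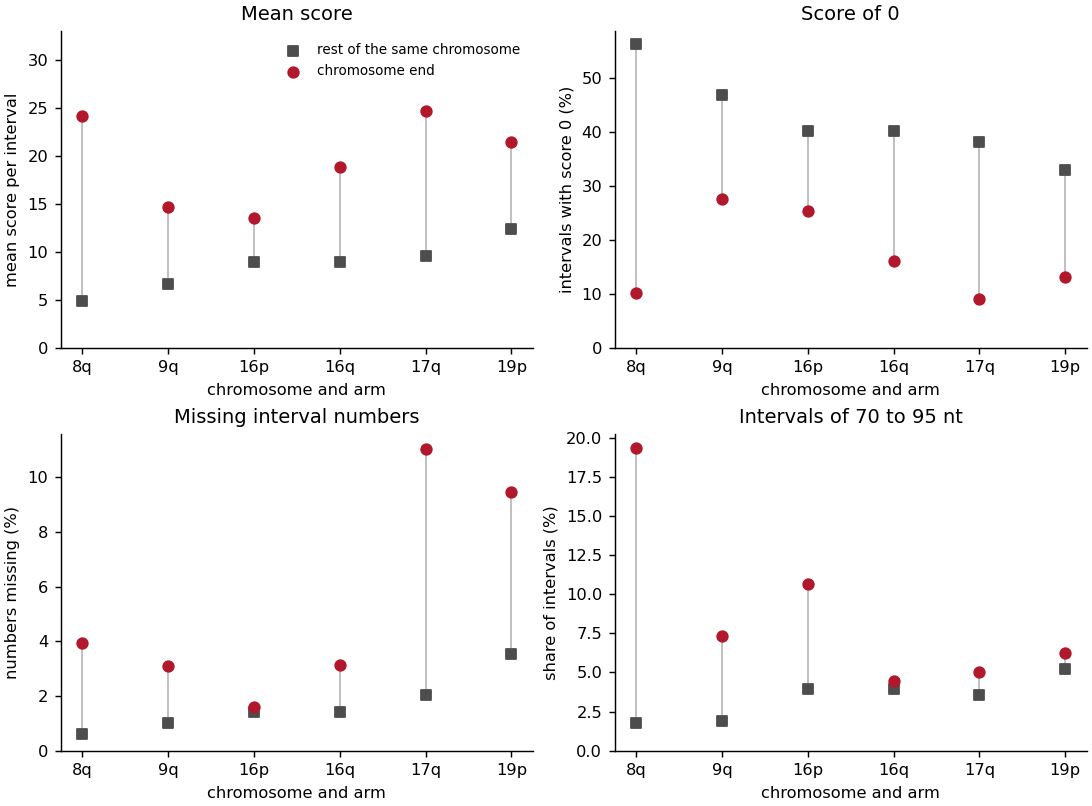
Each panel plots 1 measure (vertical axis) for the 6 chromosome ends (red circles) and for the rest of the same chromosome (grey squares), joined by a line. Mean scores of the ends lie between 13.5 and 24.7 and those of the rests between 4.91 and 12.4, and the share of 70 to 95 nt intervals at 8q (19.3%) stands above all others.

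The ends took a larger share of their chromosome's score than of its intervals, which follows from their higher means and is no separate result. The end of chromosome 8 spans 1.23% of the listed length of that chromosome, holds 5.13% of its intervals and carried 21.0% of its summed score. At the long-arm end of chromosome 9, 6.74% of the intervals carried 13.8% of the score. The smallest such contrast was at the short-arm end of chromosome 16, where 9.21% of the intervals carried 12.6%. Against windows of 2 Mb with at least 100 intervals in the rest of the same chromosome, 4 ends had a higher mean score than every window: those of chromosome 8 (54 windows, highest mean 18.9), chromosome 17 (36 windows, 17.3) and chromosome 19 (25 windows, 19.2) and the long-arm end of chromosome 16 (33 windows, 18.5). That last end exceeded its highest window, from 28 to 30 Mb, by a narrow margin. The end of chromosome 9 was exceeded by 1 of 48 windows, from 130 to 132 Mb, with a mean of 14.8. The short-arm end of chromosome 16 was exceeded by 3 of 33. The ends were placed with scores known and the 2 Mb windows on a fixed grid, which favours the ends, so these ranks are only a description.

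Bins of like target number still had higher median scores at the ends than in the rests. In bins of 100 kb with 60 or more intervals, the median bin mean at the end of chromosome 8 was 29.1 (6 bins), against 10.4 in 13 such bins of its rest. On chromosome 9 it was 18.4 (7 bins) against 9.29 (32 bins), and on chromosome 19 it was 25.7 (5 bins) against 14.4 (94 bins). At the short-arm end of chromosome 16 the values lay closer, 12.9 (12 bins) against 10.4 (35 bins). For bins of 20 to 39 intervals the median was lowest on chromosome 9, 5.68, and highest at the long-arm end of chromosome 16, 13.8, while those of the rests were 2.97 to 7.73. Bins of both kinds overlapped widely: in that class single bins of the rest of chromosome 19 reached 43.0, and single bins at the end of chromosome 17 reached 47.1.

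Scores were uneven along each end, with low bins beside high ones. Among 100 kb bins with at least 20 intervals, bin means at the end of chromosome 17 ran from 5.88 (80900001 to 81000000, 24 intervals) to 52.7 (79800001 to 79900000, 51 intervals). It was the only end with no such bin under 5. At the long-arm end of chromosome 16 they ran from 2.41 (90100001 to 90200000) to 42.9 (88700001 to 88800000, 76 intervals). On chromosome 19 the lowest bin was 400001 to 500000, with a mean of 0.65, and the highest 900001 to 1000000, with 42.4 and not 1 of 43 intervals at score 0. On chromosome 8 the range was 4.43 (145200001 to 145300000) to 40.3 in the bin just before it (145100001 to 145200000, 69 intervals). These bins, side by side, differed by more than the end and the rest of its chromosome. The outermost bins, several with under 20 intervals, were not uniformly high. On chromosome 17 the means from 80900001 outwards were 5.88, 8.92 and 4.60, below the 9.52 of its rest. On chromosome 8 those from 145800001 outwards ran from 1.00 to 12.3, around the 4.91 of its rest. By contrast, the outermost bin had a mean of 47.9 at the long-arm end of chromosome 16 and 45.8 on chromosome 19.

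The ends of chromosome 9 and of the short arm of chromosome 16 held bins with almost no score. On chromosome 9, all 24 intervals from 140800001 to 140900000 scored 0, and the highest bin was 139700001 to 139800000, with a mean of 30.0 (62 intervals). At the short-arm end of chromosome 16, 78 intervals from 1200001 to 1300000 had a mean of 0.09, with 93.6% at score 0, while the bin from 2200001 to 2300000 had a mean of 26.1 (86 intervals). These are the ends with the lowest mean scores. Bin means had standard deviations of 7.81 (short-arm end of chromosome 16, 20 bins) to 15.9 (chromosome 17, 14 bins). Neighbouring intervals up to 300 nt apart resembled each other in score, with Spearman's rho of 0.64 (chromosome 17, 299 pairs) to 0.80 (chromosome 9, 547 pairs), against 0.77 to 0.81 in the rests. These pairs share intervals and often a gene, and rho is given as a description.

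**Figure D2:**
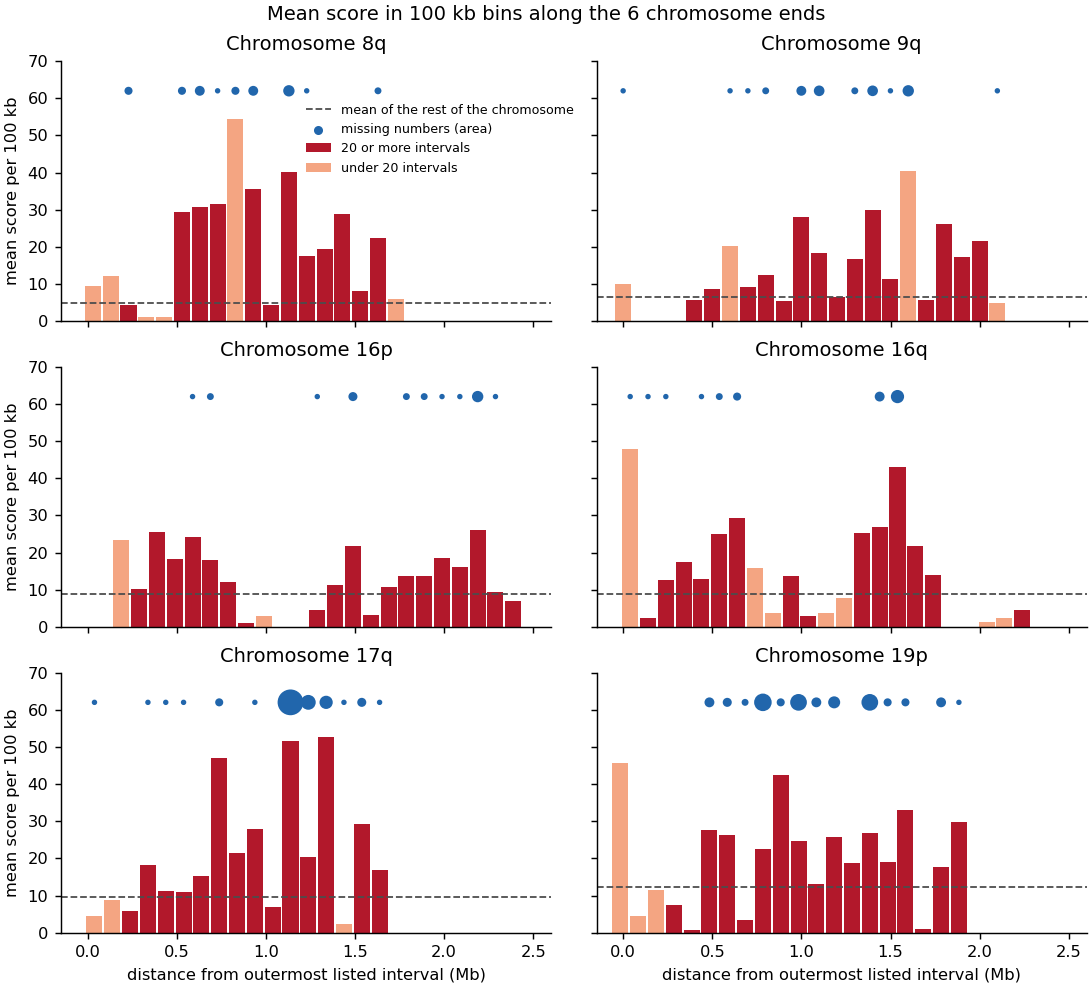
Bars give the mean score in bins of 100 kb against the distance in Mb from the outermost listed interval of the arm, dark for bins with at least 20 intervals and pale for smaller ones. The dashed line is the mean of the rest of the chromosome, and the area of each blue dot is the number of missing interval numbers in the bin. The largest dot, at 17q, stands for 44 missing numbers.

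Intervals shorter than full width were common at the end of chromosome 8. The design aimed at 100 nt from each intron end, and intervals of 70 to 95 nt are taken here as short. They made up 19.3% at that end (141 of 729) and 1.74% in the rest of the chromosome, a ratio of 11.1. Thus 37.5% of all such intervals of chromosome 8 (141 of 376) lay in its outer 1.8 Mb. The short-arm end of chromosome 16 had 10.6% against 3.97% (ratio 2.68), and the end of chromosome 9 had 7.30% against 1.88% (ratio 3.89). At the other three the share was closer to that of the rest: 6.25% against 5.20% on chromosome 19, 5.06% against 3.55% on chromosome 17 and 4.44% against 3.97% at the long-arm end of chromosome 16. No window of 2 Mb in the rest of chromosomes 8 and 9 reached the share of the end. On chromosome 19, by contrast, 6 of 25 windows did, and on chromosome 17, 6 of 36. Here too the ends were placed with results known and the 2 Mb windows on a fixed grid.

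The short intervals of chromosome 8 fell in most bins of the end, but unevenly. They fell in 15 of its 18 bins of 100 kb, with at most 26 in 1 bin, and made up 3.33% to 37.7% of the intervals in bins with at least 20. Of the 141, 110 (78.0%) had a gap of at most 1000 nt on both sides. That share was 76.4% on chromosome 19, where there were 55 short intervals, and 45.5% on chromosome 17, where there were 33. Median widths within the class were 81 nt on chromosome 8 and 82 to 84 nt at the other ends, against 85 to 87 nt in the rests. Full-width intervals of 100 nt made up 59.4% on chromosome 8 and 72.9% at the short-arm end of chromosome 16, but 80.6% to 84.4% at the other ends. Intervals wider than 101 nt were 12.3% at the end of chromosome 8 and 1.75% in its rest. On chromosome 17 they were slightly rarer at the end, 5.52% against 5.77%.

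Short intervals scored higher than full-width ones at each of the 6 ends. This was not particular to them: intervals of 102 nt or more also scored higher than full-width ones at each end. On chromosomes 9 (mean 21.7) and 17 (42.6) these wide intervals lay above the short ones too. On chromosome 8 the mean score was 37.7 for intervals of 70 to 95 nt and 16.8 for those of 100 nt, against 7.74 and 4.69 in its rest. At the long-arm end of chromosome 16 the short intervals had a mean of 38.2 (33 intervals), 21.2 above the full-width ones, and on chromosome 17 the mean was 35.7 (33 intervals), 12.7 above them. The smallest difference was on chromosome 9, 16.9 against 13.4, and it was smaller than the 6.33 in that chromosome's rest. On chromosome 19 the difference, 9.76, was about that of the rest, 9.89. At the other four ends it exceeded that of the rest. Of the short intervals on chromosome 8, 68.8% scored 19 or more and 2.13% scored 0. At the long-arm end of chromosome 16, unlike the other ends, score 0 was commoner among short intervals (21.2%) than among full-width ones (16.2%).

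The mean score of the end of chromosome 8 moved most when the mix of widths was held to that of the rest. With the shares of 6 width classes taken from the rest of the chromosome and the mean score of each class from the end, the end of chromosome 8 would have a mean of 18.1 in place of 24.1. On chromosomes 9 and 16 (short arm) the means would be 13.9 in place of 14.7 and 12.5 in place of 13.5. At the other three the mean moved little, the most at the long-arm end of chromosome 16, from 18.8 to 18.7. Among full-width intervals alone the ratio of end to rest was 3.59 on chromosome 8 and 1.44 to 2.59 at the other ends.

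**Figure D3:**
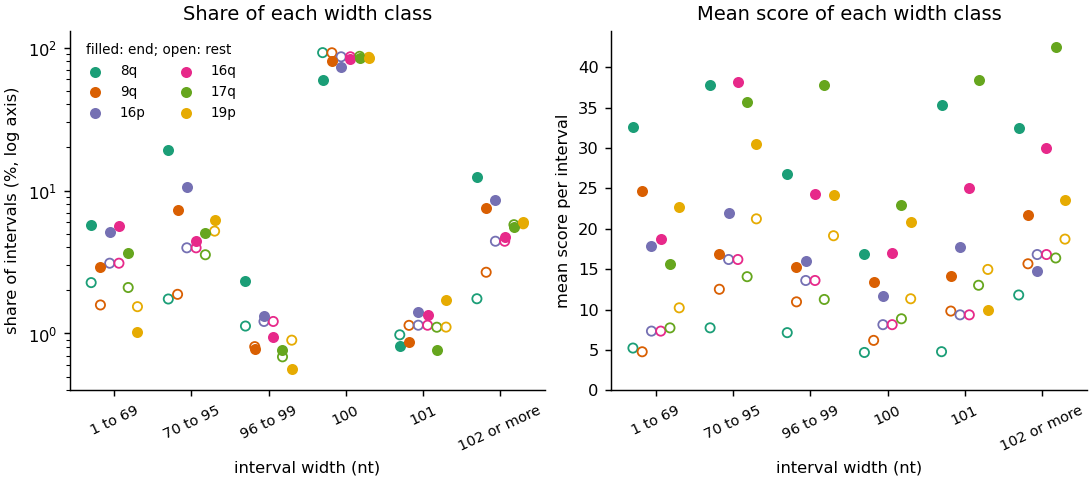
The left panel gives the share of intervals in each width class (log axis) and the right panel their mean score, for the 6 ends (filled) and the rests of their chromosomes (open, the same for 16p and 16q). At 8q 59.4% of intervals have full width and 19.3% are 70 to 95 nt long, and in that class the means of 8q (37.7), 16q (38.2) and 17q (35.7) lie highest.

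The ends were more densely targeted than the rest of their chromosomes. Targeted kb per Mb, over the span that the listed intervals of a window cover, was 59.7 at the short-arm end of chromosome 16 and 48.0 on chromosome 9, against 14.6 and 10.2 in the rests. The long-arm end of chromosome 16 was the sparsest with 31.8, close to the 31.1 of the rest of chromosome 19. Chromosome 19 had the smallest ratio, 46.1 against 31.1 (1.48), and chromosome 9 the largest (4.70). Without gaps over 100 kb, in the ends and the rests alike, the ratios were 1.11 on chromosome 17 to 2.42 on chromosome 8, with a median of 1.70 in place of 3.14. Gaps over 10 kb took up 32.5% of the short-arm end of chromosome 16 and 62.1% of the end of chromosome 8, against 64.3% to 86.9% of the rests. The highest score and the highest density thus did not coincide: chromosomes 8 and 17 led in mean score, while the short-arm ends of chromosomes 16 and 19 and the end of chromosome 9 were all more densely targeted.

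Gaps the size of exons were slightly longer at the ends. The median of gaps up to 1000 nt was 166 nt at the long-arm end of chromosome 16 (rest 153) and 147 nt on chromosome 19 (rest 141), with 4 to 13 nt more at each end than in its rest. These differences are small beside the quartiles, which were 102 and 360.5 nt on chromosome 8, and they depended on the limit: among gaps up to 300 nt the differences were -6 nt on chromosome 17 to 8 nt on chromosome 19. Among gaps of 30 to 400 nt, the share that left 1 when divided by 3 was 33.9% to 36.9% at the ends (309 to 734 gaps each) and 37.5% to 40.2% in the rests. It was lower at each end than in its rest, by 0.61 percentage points on chromosome 17 and 4.72 on chromosome 19. An exon whose length is a multiple of 3 keeps the reading frame when it is skipped, and which remainder such exons leave in this list was not determined. Because gaps inside introns are counted as well, these shares do not describe exons alone.

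Breaks in the numbering were commonest at the ends of chromosomes 17 and 19. Intervals are numbered along each chromosome, and a break is a pair of listed neighbours with numbers missing between them. On chromosome 17, 81 of the numbers at the end were missing (11.1%, against 2.03% in the rest), and on chromosome 19, 92 (9.47% against 3.52%). The end of chromosome 8 missed 30 (3.95% against 0.604%), that of chromosome 9 missed 33 (3.11% against 1.02%) and the long-arm end of chromosome 16 missed 24 (3.13% against 1.40%). The short-arm end of chromosome 16 was close to its rest, with 22 missing (1.60% against 1.40%). Among the 6 ends, then, the order by missing numbers was not that by score: chromosome 8 had nearly the mean score of chromosome 17 and a far smaller share of missing numbers.

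Missing numbers were clustered. On chromosome 17, 44 of the 81 lay in 1 bin of 100 kb, from 80000001 to 80100000, whose 57 listed intervals had a mean score of 51.7. In that bin 8 numbers were missing between the interval that starts at 80023388 and the one at 80039376, 8 more before 80041768 and 7 before the next. The 4 intervals around these jumps scored 2, 92, 110 and 93. Without this bin the share on chromosome 17 was 5.71% in place of 11.1%, still above that of its rest. On chromosome 19 the largest jump, of 9 numbers, lay between 1009072 and 1013139, and 43 of its 92 missing numbers lay in 9 jumps of 3 or more. On both ends of chromosome 16, no jump was larger than 2. Leaving out the bin with the most missing numbers brought the short-arm end of chromosome 16 to 1.17%, below its rest. No bin was left out of the rests, which lowers the trimmed ends relative to them.

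Breaks went with high scores at the ends as in the rests. Intervals next to a break had median scores of 32.5 (short-arm end of chromosome 16) to 64.5 (chromosome 8), against 5 to 12 for the other intervals of the same ends. No break lay between 2 intervals of score 0 at any end, among 672 such pairs. Such breaks were as rare in the rests, with 5 among 25472 pairs (0.0196%), so this does not set the ends apart. Where the higher score of a pair was 50 or more, 20.3% of pairs were broken at the end of chromosome 17 (9.23% in its rest), 16.1% on chromosome 19 (13.0%) and 10.9% on chromosome 8 (6.70%). At the short-arm end of chromosome 16 the value was 7.88%, with 8.05% in the rest. Pairs of that class made up 12.2% to 27.2% of pairs at the ends and 3.10% to 12.1% in the rests.

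Part of the difference in breaks went with the larger share of high-scoring pairs at the ends. If each of 5 score classes had broken at the rate of the rest of the same chromosome, the end of chromosome 8 would have 17.4 breaks, and it had 23. The corresponding values were 17.6 and 21 on chromosome 9, 16.2 and 21 at the long-arm end of chromosome 16, and 21.0 and 20 at its short-arm end. On chromosome 19 there were 49 breaks in place of 34.9, a ratio of 1.40. The end of chromosome 17 lay furthest above the number its score classes would give, with 43 breaks in place of 22.1, a ratio of 1.95. The labels say that highly transcribed parts were taken out of the design, and whether this step left the missing numbers was not tested.

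**Figure D4:**
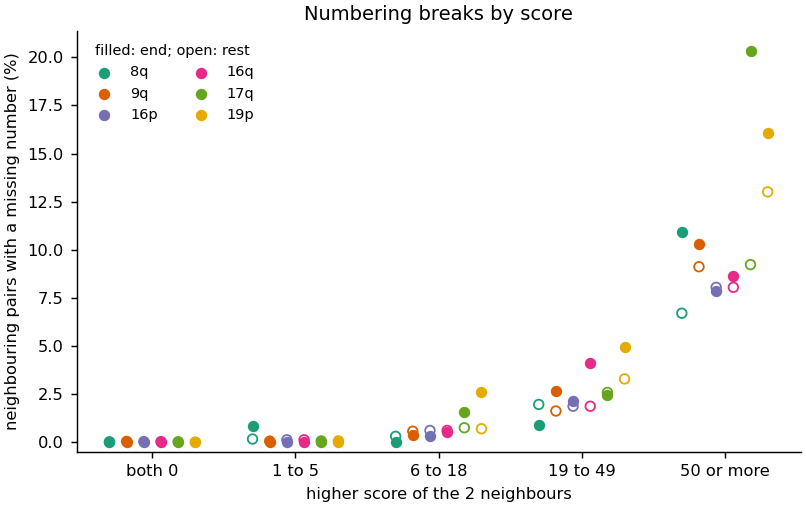
The share of neighbouring pairs with at least 1 missing number (vertical axis) is plotted by the higher score of the pair, for the 6 ends (filled) and the rests of their chromosomes (open, the same for 16p and 16q). In the class of 50 or more, 17q (20.3%) and 19p (16.1%) lie above the other ends, which run from 7.88% to 10.9%.

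The highest-scoring intervals came close to 125, the highest score in the list. Only chromosome 19 reached it among the ends, from 862992 to 863091 (score 125, number 295), and 3 numbers were missing right after that interval. Its outermost listed interval, from 66500 to 66599, scored 121. On chromosome 17 the highest were 80045381 to 80045559 (179 nt, score 124), inside the cluster of missing numbers, and 80438858 to 80438957 (score 124). At the long-arm end of chromosome 16 the highest was 88924927 to 88925024 (98 nt, score 124) and at the short-arm end 2026116 to 2026211 (96 nt, score 123). On chromosome 9 it was 139733261 to 139733360 (score 124), followed by an interval of 193 nt from 139745014 to 139745206 (score 121). On chromosome 8 the 2 highest, 145318815 to 145318883 and 145487751 to 145487819, were both 69 nt long with a score of 122. These top intervals were of narrow, full and wide width.

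The edges of the windows did not all mark a step in score. In the 500 kb inside the inner edge, the mean score on chromosome 17 was 27.0, against 8.52 in the 500 kb outside it, and on chromosome 9 it was 18.2 against 7.34. On chromosome 8 the values were 21.0 and 12.4, and at the short-arm end of chromosome 16 they were 16.3 and 13.8. On chromosome 19 the mean was higher outside (24.9) than inside (20.8), and at the long-arm end of chromosome 16 it was 10.8 outside and 2.82 inside. The 5 intervals on either side of an edge scored 0 to 51 inside and 0 to 36 outside. Moving every inner edge by 200 kb in either direction left each end above its rest in mean score.

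Among the ends of the listed span of all chromosomes, the 6 were the most densely targeted or near it, while some others matched their scores. The outermost 2 Mb of listed span were taken from both sides of every chromosome other than Y, which gives 46 ends. An end is here the edge of the listed span, and how far each lies from a telomere was not determined. By mean score, chromosome 8 (23.4), chromosome 17 (22.4) and chromosome 19 (21.8) held ranks 1 to 3, the long-arm end of chromosome 16 rank 5, chromosome 9 rank 9 and the short-arm end of chromosome 16 rank 12. Rank 4 was the long-arm end of X, with 21.4, where 9.67% of numbers were also missing. The median of the 40 other ends was 7.69. By targeted kb per Mb all 6 were among the first 10, led by the short-arm end of chromosome 16 (53.2) and chromosome 9 (51.8). For chromosome 9 the rank depended on the length taken: its outermost 1 Mb had a mean score of 8.42 and rank 28.

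The opposite arms of chromosomes 8, 9, 17 and 19 had lower mean scores over their outermost 2 Mb than the 6 ends. The short-arm end had a mean score of 2.84 on chromosome 8 (190 intervals) and 5.73 on chromosome 9 (187 intervals), and 10.3 on chromosome 17. The long-arm end of chromosome 19 had a mean of 10.2 (462 intervals). In its outermost 1 Mb that end had a mean of 14.3 (rank 12), above the 8.42 of chromosome 9 at that length. In missing numbers the arms did not divide in the same way. None was missing at the short-arm ends of chromosomes 8 and 9, but 5.71% were missing at the long-arm end of chromosome 19, more than the 3.73% of chromosome 8 over the same length. In the share of 70 to 95 nt intervals the end of chromosome 8 ranked first of 46 over 2 Mb with 17.9%, followed by the long-arm end of chromosome 22 with 12.0% and the short-arm end of chromosome 16 with 11.2%. Over the outermost 1 Mb the end of chromosome 8 ranked 2 with 19.6%, behind the long-arm end of chromosome 14 (28.6% of 91 intervals), and 2 of the 6 ends were among the first 10 in place of 4.

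**Figure D5:**
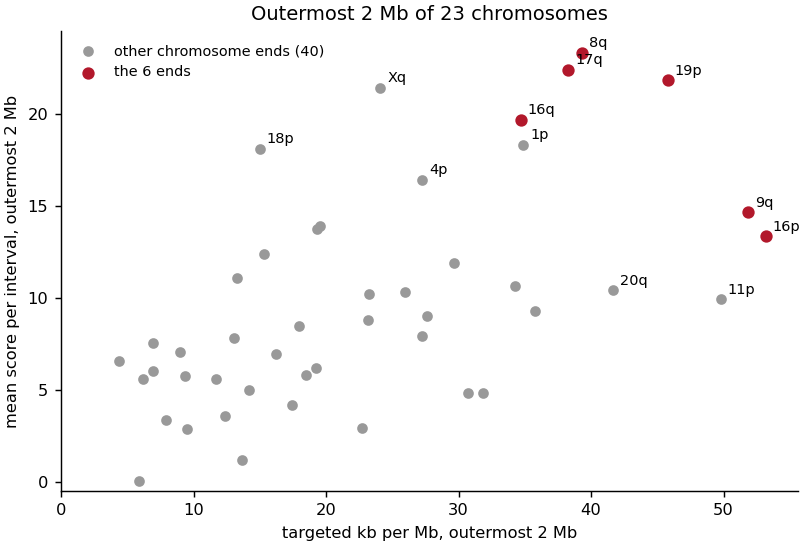
Each point is the outermost 2 Mb of listed span on 1 side of a chromosome, red for the 6 ends and grey for the other 40. Targeted kb per Mb is on the horizontal axis and mean score per interval on the vertical axis. The 6 ends lie at 34.7 kb per Mb or more. Among the grey points Xq reaches a mean score of 21.4, and 11p has 49.8 kb per Mb.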

How the data were processed

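The authors' deposited list gives, for each interval, a chromosome, start, end, running number, strand sign and score. Per the submitters' processing notes the build is hg19, and bedtools, TopHat2 and Bowtie2 are named as tools. The step that made the list and the scale of the score: not given in the sources used here. Scores were taken as deposited, with no count model. Starts are printed 1-based. Positions of the intervals, an other kind of value, are also the authors' own.

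Windows, members and measures were chosen with earlier results of these data known, and ends were not tested against rests. Dixon's criterion over the 6 ends served only to pick values for the closing section. Gaps and missing numbers were counted between listed neighbours that both lay in the same set. Density used the span from first to last interval. Width classes were 1 to 69, 70 to 95, 96 to 99, 100, 101 and at least 102 nt. Named regions followed a rule: in each window the 3 highest scores, the largest jump in number, the longest gap, the longest run of score 0 and the highest and lowest 100 kb bins with at least 20 intervals. Where a further feature is named (the cluster of jumps on chromosome 17, X and other ends), it was chosen after its values were seen. Counts of missing numbers, breaks, short intervals and scores of 0, and the median gap, were checked on an artificial list with planted values. The other measures were not checked in this way. The background gene names come from a list of 12 genes per end, and RefSeq's GRCh38.p14 table has all 12 on the stated chromosome for 5 ends and 11 for the long-arm end of chromosome 16. No hg19 genome was used here, so no sequence is printed. Tables came from pandas 2.3.3 and numpy 2.4.6 under Python 3.11.15, and figures from matplotlib 3.10.9.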

Additional observations from a re-analysis of the deposited data

Results flagged for a closer look

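The ratio of the end of chromosome 8 to the rest of its chromosome was past Dixon's critical value, which screens the distance of the highest of 6 values from the next, in 2 measures. The windows were proposed with such values known, and both ends of chromosome 16 share a rest, so this marks values to look at and supports nothing. Its mean score was 4.91 times that of the rest, and the next highest ratio was 2.59 on chromosome 17. Its share of intervals of 70 to 95 nt was 11.1 times that of the rest, and the next highest was 3.89 on chromosome 9. The rest of chromosome 8 also had the lowest mean score and the lowest share of such intervals among the 5 chromosomes. In the values of the end itself, 24.1 for the mean score and 19.3% for the share, chromosome 8 was not past that value. Chance flags about 1 in 20 groups, and no end was past it in the other measures screened. Both the highest and the lowest end were screened in each measure. Mean score, missing numbers, short share and density were each screened as a ratio and as the end's own value. These screens overlap, so the flags cannot be weighed against that rate.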

How the results depend on the processing

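Of 30 alternatives, 1 moved the median over the 6 ends by more than 1 standard deviation between the ends. With gaps up to 300 nt, the median difference in gap length between end and rest was 1 nt in place of 7. Chromosome 17 was reversed there (-6 nt). The limit was wide: for the share of 70 to 95 nt intervals it was 3.84, above the median ratio of 2.05 itself. No fall of that ratio could have counted as moved, so the count of 1 does not measure robustness. All 6 ends stayed above their rests in mean score under the 5 alternatives run for that ratio (median 1.80 to 2.20, 2.17 as reported) and in the share of 70 to 95 nt intervals under its 5 (median 1.78 to 2.22, 2.05 as reported). Another, the outermost 1 Mb in place of 2 Mb, has no such median: 5 of the 6 ends were among the first 10 by mean score at both lengths. The members changed, as chromosome 9 went from rank 9 to 28 and the short-arm end of chromosome 16 from 12 to 9. By missing numbers 2 of the 6 were among the first 10 in place of 4, and by density 5 in place of 6. On chromosome 17 the share missing was 2.61% (rank 11) in place of 9.88% (rank 1). Density without gaps over 100 kb gave a median ratio of 1.70 in place of 3.14. This was not counted as moved, because the standard deviation between the ends was 1.46. One alternative, leaving out the bin with the most missing numbers at each end, was added after the data were seen. It gave a median ratio of 2.40 in place of 2.88, with no bin left out of the rests. No paired analysis was possible because there is 1 group and a single list shared by its libraries, and replicates could not be left out for the same reason. The number of intervals limits the shares at single ends, such as 33 short intervals on chromosome 17. Read depth was not analysed here.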

Other observations

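Runs of score 0 and runs of scores above 0 differed in length at the ends. The longest run of score 0 was on chromosome 9, with 55 intervals over 174 kb from 140769814 to 140943868, followed by 28 intervals over 9.96 kb at the short-arm end of chromosome 16 (1255014 to 1264971). On chromosomes 8 and 17 the longest such runs had 6 and 7 intervals. Runs without any score of 0 held more intervals at each end, though the one on chromosome 9 spans fewer kb than the run of score 0 there. They held 157 intervals over 152 kb on chromosome 8 (145608182 to 145759686, mean score 32.2), 140 over 192 kb on chromosome 17 (79900256 to 80091947, mean 33.15) and 129 over 116 kb on chromosome 9 (139232203 to 139348062, mean 26.8). The run on chromosome 17 had 57 missing numbers inside it, that on chromosome 8 had 8 and that on chromosome 9 had 0.

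The longest run of intervals that all scored 19 or more was on chromosome 8, with 23 intervals from 145618108 to 145627039 (mean 53.6), of which 12 were 70 to 95 nt long. On chromosome 19 a run of 14 intervals from 1088720 to 1108777 had a mean of 75.9. The longest gap at any of the ends was 184 kb, at the long-arm end of chromosome 16 from 88336028 to 88520087.

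Outside the window at the short-arm end of chromosome 16, 77 intervals lay closer to the telomere. They had a mean score of 20.4, with 6.49% at score 0, and were counted with the rest of that chromosome. This arm is known to hold the alpha globin genes of haemoglobin close to its end, and no gene was attached to these intervals.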
